A study of Mus musculus with 15 samples.

Results

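The expression of 10 genes that build, steer or mark blood vessels was followed in the quadriceps muscle of 15 C57BL/6 mice, out of 39179 genes listed in each count file. The genes were chosen by name and not by their values: the secreted ligands Vegfa, Vegfb and Angpt1, the receptors Kdr, Flt1 and Tek, the endothelial junction genes Pecam1 and Cdh5, and the hypoxia-inducible factor subunits Hif1a and Epas1. The mice were wild-type (WT) or homozygous for the V338Y mutation in Mrps5, a protein of the small mitochondrial ribosomal subunit, which raises misreading during mitochondrial translation. RNA-seq was done on 4 WT and 4 V338Y mice at 3 mo of age and on 3 WT and 4 V338Y mice at 19 mo, with 1 library per mouse. The mutation is carried in the germline and so is present in every cell of the muscle. WT and V338Y mice were not described as littermates in the sources used here.

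The libraries held 8250653 to 18968132 counts each (median 12806501), and each of the 10 genes had between 131 and 3009 counts in every mouse, so that all 10 passed the filter on low counts in all comparisons. Mrps5 itself was read at 15 to 27.5 CPM (a gene's counts as a share of its library, scaled by the trimmed mean of M-values, TMM) and was not called between genotypes at either age. A point mutation need not change this level, which therefore does not check the genotype labels. All 8 mice aged 3 mo expressed the Y-linked gene Ddx3y, at 163 to 202 CPM, with at most 0.575 CPM of Xist, the RNA that silences an X chromosome in females. The 7 mice aged 19 mo had 506 to 631 CPM of Xist and at most 0.0827 CPM of Ddx3y. The study's methods describe the 3 mo mice as female, and the labels give no sex. Age and sex therefore cannot be told apart in any difference between 3 mo and 19 mo reported here, whereas the comparisons of genotype were each made within 1 age and 1 such class.

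Vessel growth is driven chiefly by VEGF-A, which muscle fibers and other cells secrete and which endothelial cells sense through VEGFR2, the product of Kdr. VEGFR1, the product of Flt1, binds VEGF-A and VEGF-B tightly and in part withholds them from VEGFR2. Angiopoietin-1, made by cells around the vessel, signals through the receptor Tie2, encoded by Tek, and keeps vessels quiescent. PECAM1 and VE-cadherin, the product of Cdh5, join endothelial cells to one another. HIF-1α (Hif1a) and HIF-2α (Epas1) are oxygen-sensitive transcription factors that bind the hypoxia response element. They are controlled mostly through protein breakdown, which RNA-seq does not measure. Epas1 RNA is abundant in endothelial cells, and in muscle it is also found in the fibers, in particular slow ones.

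The 10 genes lie on 8 chromosomes, and all are protein coding (GRCm38). Kdr spans chr5:75932827-75978458 and Flt1 chr5:147561604-147726011, both on the minus strand. Vegfa spans chr17:46016993-46032369 on the minus strand and Epas1 chr17:86753700-86833410 on the plus strand. Hif1a spans chr12:73901375-73947530 on the plus strand, and 330 of its exon bases are shared with the antisense gene Gm15283, which had 20 counts in all mice together. Angpt1 shares 737 exon bases with the antisense gene Gm17473, which had 65 counts in all mice together. The RefSeq promoter table (GRCm38.p6) held a window for 6 of the 10 genes, namely Vegfa, Vegfb, Kdr, Flt1, Tek and Hif1a. The 250 bases before the start site are printed for both VEGF receptors, which were higher at 19 mo. Those of Vegfa and Hif1a, which were not called, are printed as well. They show only whether these bases hold the letters that hypoxia-inducible factors read. Bases farther from the start site were not read, and Epas1 had no window. The strand is that of the gene, and capitals mark the core of the hypoxia response element, ACGTG or GCGTG, on either strand. The windows are Kdr, chr5:75978456-75978705, minus strand; Flt1, chr5:147726012-147726261, minus strand; Vegfa, chr17:46032378-46032627, minus strand; and Hif1a, chr12:73907617-73907866, plus strand, which lies inside the annotated gene span.
Kdr: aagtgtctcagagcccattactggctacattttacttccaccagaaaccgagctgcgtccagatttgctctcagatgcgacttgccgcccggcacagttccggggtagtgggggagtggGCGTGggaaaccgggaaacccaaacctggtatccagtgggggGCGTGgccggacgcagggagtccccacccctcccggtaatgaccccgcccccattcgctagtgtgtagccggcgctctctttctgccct
Flt1: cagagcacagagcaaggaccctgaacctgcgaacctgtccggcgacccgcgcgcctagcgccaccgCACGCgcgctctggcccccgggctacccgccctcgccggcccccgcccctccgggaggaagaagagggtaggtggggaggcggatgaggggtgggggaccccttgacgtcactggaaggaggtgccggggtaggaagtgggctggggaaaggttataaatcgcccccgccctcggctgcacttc
Vegfa: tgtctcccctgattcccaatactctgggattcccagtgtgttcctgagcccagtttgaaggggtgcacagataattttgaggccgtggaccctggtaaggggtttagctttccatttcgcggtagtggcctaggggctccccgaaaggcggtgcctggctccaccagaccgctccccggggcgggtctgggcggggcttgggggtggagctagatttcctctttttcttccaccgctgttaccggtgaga
Hif1a: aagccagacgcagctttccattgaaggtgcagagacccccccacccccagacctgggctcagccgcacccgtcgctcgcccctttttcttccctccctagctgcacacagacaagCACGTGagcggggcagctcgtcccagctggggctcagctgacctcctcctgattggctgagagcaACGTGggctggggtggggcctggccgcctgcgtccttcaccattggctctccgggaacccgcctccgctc

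Counted from the start site, the Kdr window held GCGTG at -131 and -89 and the Flt1 window at -184. The first Vegfa window held neither form. A second RefSeq window of Vegfa, chr17:46025164-46025413, held 1 of each, and it lies inside the annotated gene span. The Hif1a window held ACGTG at 3 positions, of which 2 are the same palindrome CACGTG read on both strands. Vegfb held GCGTG at 2 positions and Tek held neither form. At least 1 of the forms was present in 43.8% of 32851 distinct promoter windows of the same length of 300 bases. The core AGGAAG of the ETS family, factors that mark endothelial genes, was found in Flt1 alone among the 6 genes, at 2 positions, and in 35.4% of all windows. GGGCGG, the GC box, was found in Vegfa, Vegfb, Kdr and Flt1 and in 35.7% of all windows. These matches are descriptions of letters only.

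Per length of annotated exons, Vegfa was the most abundant of the 10 transcripts and Angpt1 the least in all 4 groups. In 3 mo WT mice Vegfa reached 25.9 ± 2.33 CPM per kb (SD, n = 4), followed by Vegfb at 11 ± 0.658 CPM per kb and Pecam1 at 8.30 ± 0.423 CPM per kb. Tek, Hif1a, Cdh5 and Epas1 followed between 6.57 and 7.21 CPM per kb, and neighbours among Pecam1 and these 4 genes overlapped between mice. Kdr, at 4.26 ± 0.847 CPM per kb, Flt1, at 3.47 ± 0.216 CPM per kb, and Angpt1, at 2.64 ± 0.607 CPM per kb, closed the order, and their ranges did not overlap. At 19 mo the order changed at 1 place above all, because Epas1 moved from rank 7 to rank 2. In 19 mo WT mice Epas1 stood at 26.5 ± 7.27 CPM per kb beside Vegfa at 28.2 ± 9.41 CPM per kb (SD, n = 3), and the ranges of these neighbours overlapped. The same neighbours stood at 27.4 and 28.2 CPM per kb in 19 mo V338Y mice and also overlapped. The exon lengths pool all annotated isoforms, and which isoforms were used is unknown.

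**Figure D1:**
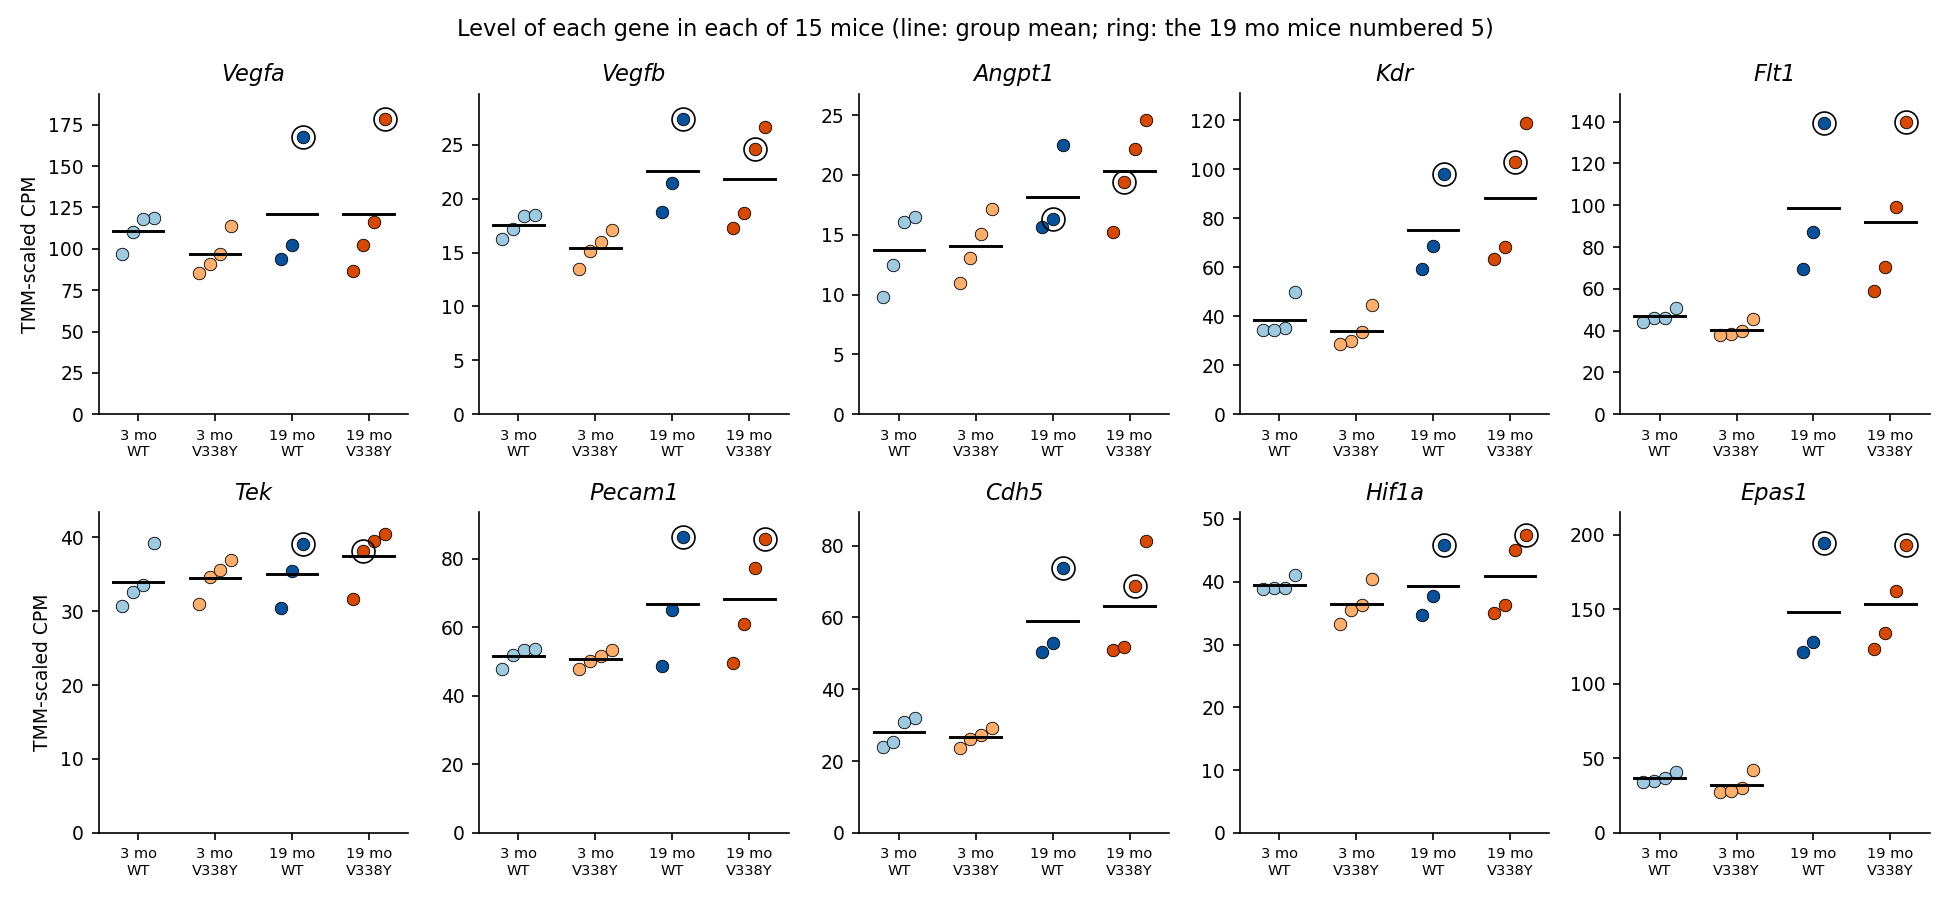
Level of each of the 10 genes (y axis, TMM-scaled CPM, starting at 0) in each mouse, by group (x axis), with 1 point per mouse and a line at the group mean. Rings mark the 19 mo mice numbered 5. Epas1, Cdh5, Kdr and Flt1 separate the ages in both genotypes, whereas Tek and Hif1a overlap throughout.

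The comparison of 19 mo with 3 mo asked how the vascular genes differ between the ages in each genotype. The ages also differ in Xist and Ddx3y, so that age and sex cannot be told apart here. Kdr, Flt1, Cdh5 and Epas1 were up-regulated at 19 mo in both WT and V338Y mice, and Epas1 rose most, 4.04-fold in WT and 4.84-fold in V338Y. In V338Y mice Vegfb, Angpt1 and Pecam1 also passed the test. Vegfa, Tek and Hif1a passed in neither genotype. Thus 4 of 10 genes were called in WT, all higher, beside 36.2% of 13657 genes called in either direction and 18.3% called higher. In V338Y mice 7 of 10 were called, all higher, beside 46.9% of 13868 genes in either direction and 24.4% higher. The median log2 fold change of the 10 genes was 0.393 in WT and 0.530 in V338Y, against 0.0186 and 0.0718 over all genes tested. A gene was called when its adjusted p was under 0.05 (edgeR's quasi-likelihood test with Benjamini-Hochberg adjustment over all genes tested). In bulk muscle a change in the share of a cell type and a change in RNA per cell cannot be told apart.

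Epas1, the HIF-2α gene, was read at 40.9, 34.9, 34.4 and 36.7 CPM in 3 mo WT mice and at 128, 121 and 195 CPM in 19 mo WT mice. In V338Y mice it was read at 42.4, 27.4, 29.9 and 27.8 CPM at 3 mo and at 162, 134, 123 and 193 CPM at 19 mo. Every 19 mo mouse thus stood far above every 3 mo mouse. The log2 fold change was 2.01 in WT (SE 0.162, adjusted p = 9.65e-05) and 2.28 in V338Y (SE 0.185, adjusted p = 5.15e-05). Hif1a, the gene of the paralogous subunit HIF-1α, did not follow. It ranged from 38.9 to 41.1 CPM in 3 mo WT, 33.3 to 40.4 CPM in 3 mo V338Y, 34.7 to 45.8 CPM in 19 mo WT and 35.0 to 47.5 CPM in 19 mo V338Y mice, and all groups overlapped. Its difference with age was -0.0035 in WT (95% interval -0.24 to 0.23 on the log2 scale, adjusted p = 0.982) and 0.19 in V338Y (95% interval -0.088 to 0.46, adjusted p = 0.236).

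The ratio of Hif1a to Epas1 counts within each library, which no scaling of libraries can move, fell accordingly. On the log2 scale it was 0.11 ± 0.134 in 3 mo WT and -1.89 ± 0.175 in 19 mo WT, a difference of -2.0. In V338Y it was 0.21 ± 0.375 at 3 mo and -1.89 ± 0.113 at 19 mo, a difference of -2.10. The 2 ages did not overlap in either genotype. The two-sided exact permutation test gave p = 0.0286 for each, the smallest value these group sizes allow, and the adjusted p was 0.229 over 24 such tests of 6 ratios, of which 0 passed.

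Kdr, the main signalling receptor for VEGF-A, was read at 34.4, 35.3, 34.4 and 49.97 CPM in 3 mo WT mice and at 59.2, 68.7 and 98.0 CPM in 19 mo WT mice. The V338Y mice gave 44.4, 30.0, 33.5 and 28.6 CPM at 3 mo and at 119, 63.5, 68.3 and 103 CPM at 19 mo. The ages separated in both genotypes, and the 19 mo mice spread more widely than the 3 mo mice. The log2 fold change was 0.97 in WT (SE 0.190, adjusted p = 0.00479, 1.96-fold) and 1.38 in V338Y (SE 0.222, adjusted p = 0.00105, 2.61-fold).

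Flt1, the decoy-like receptor, was read at 51.0, 46.0, 44.2 and 46.1 CPM in 3 mo WT mice and at 69.6, 87.3 and 139 CPM in 19 mo WT mice. Its levels in V338Y mice were 38.4, 38.0, 39.6 and 45.5 CPM at 3 mo and at 99.4, 59.1, 70.4 and 140 CPM at 19 mo. Again no 19 mo mouse fell within the 3 mo range, and the mouse numbered 5 was the highest in each genotype. The log2 fold change was 1.08 in WT (SE 0.200, adjusted p = 0.00375) and 1.2 in V338Y (SE 0.238, adjusted p = 0.00298). The log2 ratio of Flt1 to Kdr was 0.30 ± 0.292 in 3 mo WT and 0.36 ± 0.138 in 19 mo WT, and in V338Y it was 0.26 ± 0.364 and 0.03 ± 0.300. Neither age difference of this ratio passed (exact permutation p = 0.886 and 0.400).

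Tek, which encodes the angiopoietin receptor Tie2, stayed in 1 range, from 30.7 to 39.3 CPM in 3 mo WT, 31.0 to 36.9 CPM in 3 mo V338Y, 30.4 to 39.0 CPM in 19 mo WT and 31.7 to 40.5 CPM in 19 mo V338Y mice. The ages overlapped in both genotypes. The log2 difference was 0.04 in WT (95% interval -0.22 to 0.31, adjusted p = 0.798) and 0.13 in V338Y (95% interval -0.095 to 0.36, adjusted p = 0.309), so that a doubling, as seen for the VEGF receptors, lies outside both intervals.

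Cdh5, the gene of VE-cadherin, was read at 32, 24, 25.3 and 30.9 CPM in 3 mo WT mice and at 52.8, 50.3 and 73.7 CPM in 19 mo WT mice. V338Y mice had 29.2, 27.3, 26.2 and 23.7 CPM at 3 mo and at 81.4, 51.0, 51.9 and 68.7 CPM at 19 mo. The ages were well apart in both genotypes. The log2 fold change was 1.07 in WT (SE 0.157, adjusted p = 0.00127) and 1.26 in V338Y (SE 0.159, adjusted p = 0.000327).

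Pecam1, a second junction gene and a common marker of endothelial cells, moved less. It was read at 51.8, 53.3, 48.0 and 53.8 CPM in 3 mo WT mice and at 48.6, 65.2 and 86.4 CPM in 19 mo WT mice. In V338Y mice the values were 51.7, 53.4, 47.8 and 50.1 CPM at 3 mo and at 77.4, 49.5, 60.8 and 85.7 CPM at 19 mo. In each genotype 1 mouse aged 19 mo, numbered 2 in WT and 3 in V338Y, lay within the 3 mo range. The log2 fold change was 0.37 in WT (adjusted p = 0.110) and 0.44 in V338Y (SE 0.159, adjusted p = 0.0431). In WT Pecam1 passed without 19 mo WT mouse 2 (adjusted p = 0.0116). The V338Y call was not firm. It was lost with size factors by relative log expression (adjusted p = 0.0502), without the filter on low counts (adjusted p = 0.0528), with the block (adjusted p = 0.115), without any 1 of the 4 V338Y mice aged 3 mo (adjusted p = 0.0727 to 0.104) and without 19 mo V338Y mouse 2 (adjusted p = 0.101) or 5 (adjusted p = 0.0863). Within libraries, the log2 ratio of Kdr to Pecam1 went from -0.44 ± 0.231 to 0.18 ± 0.104 in WT and from -0.59 ± 0.288 to 0.35 ± 0.195 in V338Y. The exact permutation p was 0.0571 and 0.0286, and the adjusted p 0.343 and 0.229.

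**Figure D2:**
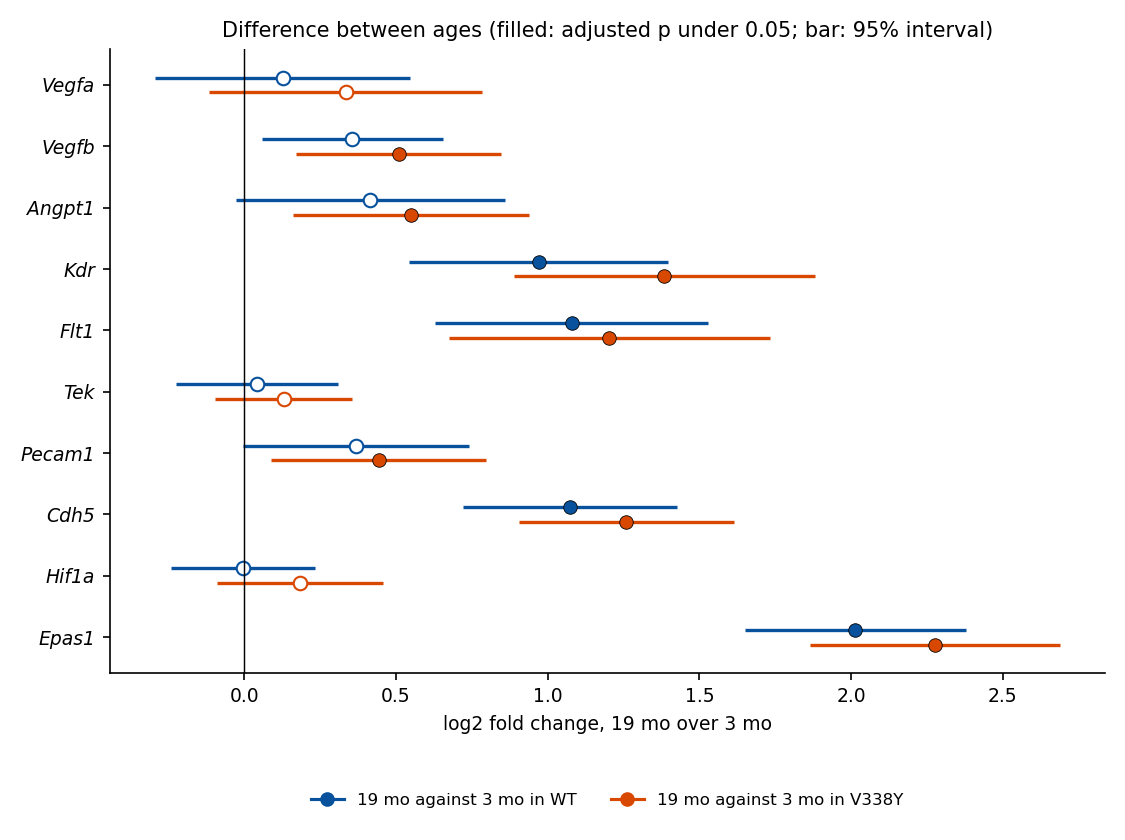
Log2 fold change of 19 mo over 3 mo (x axis) for each of the 10 genes in WT and V338Y mice, with the 95% interval as a bar. Kdr, Flt1, Cdh5 and Epas1 lie above 0 in both genotypes, and the intervals of Vegfa, Tek and Hif1a include 0 in both.

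Vegfa, the principal ligand, was read at 97.0, 110, 119 and 118 CPM in 3 mo WT mice and at 93.6, 102 and 167 CPM in 19 mo WT mice. In V338Y mice it was read at 114, 90.7, 85.6 and 96.9 CPM at 3 mo and at 117, 102, 86.6 and 178 CPM at 19 mo. Both 19 mo groups held 1 mouse, numbered 5, far above the others, and the others lay in or near the 3 mo range. The log2 difference was 0.13 in WT (95% interval -0.29 to 0.55, adjusted p = 0.621) and 0.33 in V338Y (95% interval -0.12 to 0.78, adjusted p = 0.195). Without both mice numbered 5 the WT difference was -0.19.

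Vegfb, the ligand bound by VEGFR1 alone among the VEGF receptors, was read at 18.4, 18.5, 16.3 and 17.2 CPM in 3 mo WT mice and at 21.4, 18.7 and 27.4 CPM in 19 mo WT mice. The V338Y mice gave 17.1, 16.0, 13.5 and 15.1 CPM at 3 mo and at 26.6, 18.6, 17.3 and 24.6 CPM at 19 mo. The ages came close without overlapping in both genotypes. The log2 difference was 0.36 in WT (adjusted p = 0.0607) and 0.51 in V338Y (SE 0.152, adjusted p = 0.0205). The V338Y call of Vegfb was lost without 19 mo V338Y mouse 2 (adjusted p = 0.0503) or 3 mo V338Y mouse 3 (adjusted p = 0.0624). In WT Vegfb passed without 19 mo WT mouse 4 (adjusted p = 0.0353). Angpt1, the ligand of Tie2, was read at 11, 17.2, 13.1 and 15.1 CPM in 3 mo V338Y mice and at 24.5, 22.1, 15.3 and 19.4 CPM in 19 mo V338Y mice, a log2 difference of 0.55 (SE 0.174, adjusted p = 0.0267) with 1 mouse of the older group inside the younger range. This call was lost with the block (adjusted p = 0.0564) and without 19 mo V338Y mouse 2 or 3 or 3 mo V338Y mouse 1 or 3 (adjusted p = 0.0595 to 0.0711). In WT mice it ranged from 9.82 to 16.5 CPM at 3 mo and from 15.6 to 22.5 CPM at 19 mo, a log2 difference of 0.42 (adjusted p = 0.125).

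The groups of mice did not overlap between the ages for 5 of the 10 genes in WT, beside 43.4% of all genes tested, and for 5 of 10 in V338Y, beside 42.2%. In both genotypes these were Vegfb, Kdr, Flt1, Cdh5 and Epas1. The calls of Kdr, Flt1, Cdh5 and Epas1 held in every alternative run, including the one without both 19 mo mice numbered 5, where Epas1 differed by 1.76 on the log2 scale in WT and by 2.15 in V338Y. The 7 calls in V338Y were less firm as a count. They fell to 4 without 19 mo V338Y mouse 2 or without 3 mo V338Y mouse 3, and to 6 without both mice numbered 5. Longer genes were on the whole higher at 19 mo. The Spearman correlation of the log2 fold change with exon length over all genes was 0.302 in WT and 0.231 in V338Y. Of the genes of 6836 bp or more, among them Kdr (9030 bp) and Flt1 (13504 bp), 33.1% were called higher in WT. The share was 19.9% for genes of 4397 to 6835 bp, such as Epas1 (5590 bp), 12.7% for 2684 to 4396 bp, such as Cdh5 (4203 bp), and 7.4% for 2683 bp or less. The part of gene length in these results was not tested.

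Whether the mutation shifts the vascular genes was asked at each age separately. None of the 10 genes passed the test between V338Y and WT mice at 3 mo (0 of 10 called, beside 0.075% of 13333 genes tested) or at 19 mo (0 of 10, beside 0.0434% of 13833). By DESeq2 the count was also 0 at both ages. At 3 mo 8 of the 10 genes were lower in V338Y, with a median log2 difference of -0.139 against -0.00255 over all genes, and 1 of 10 had an unadjusted p under 0.05, beside 9.7% of all genes tested. That gene was Flt1, with a difference of -0.21 (95% interval -0.40 to -0.024, adjusted p = 0.475), with group means of 46.8 ± 2.91 CPM in WT and 40.4 ± 3.49 CPM in V338Y and an overlap of the groups. Vegfa differed by -0.19 (95% interval -0.41 to 0.024), with 111 ± 10.0 CPM in WT and 96.7 ± 12.1 CPM in V338Y (adjusted p = 0.559). For 0 of 10 genes did the groups separate, beside 4.71% of all genes. The 95% intervals of all 10 genes lay within -0.52 and 0.44 on the log2 scale.

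At 19 mo the spread between mice was larger. Kdr was 75.3 ± 20.2 CPM in WT and 88.4 ± 26.9 CPM in V338Y, a log2 difference of 0.26 (95% interval -0.34 to 0.86, adjusted p = 0.782). Flt1 was 98.8 ± 36.3 and 92.1 ± 36.0 CPM, a difference of -0.071 (95% interval -0.82 to 0.68). Epas1 was 148 ± 40.6 and 153 ± 31.4 CPM, a difference of 0.078 (95% interval -0.41 to 0.57). The groups separated for 0 of 10 genes, beside 9.79% of all genes. With the mouse number as a block, the count over all genes rose from 6 to 110, and that of the 10 genes stayed at 0.

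**Figure D3:**
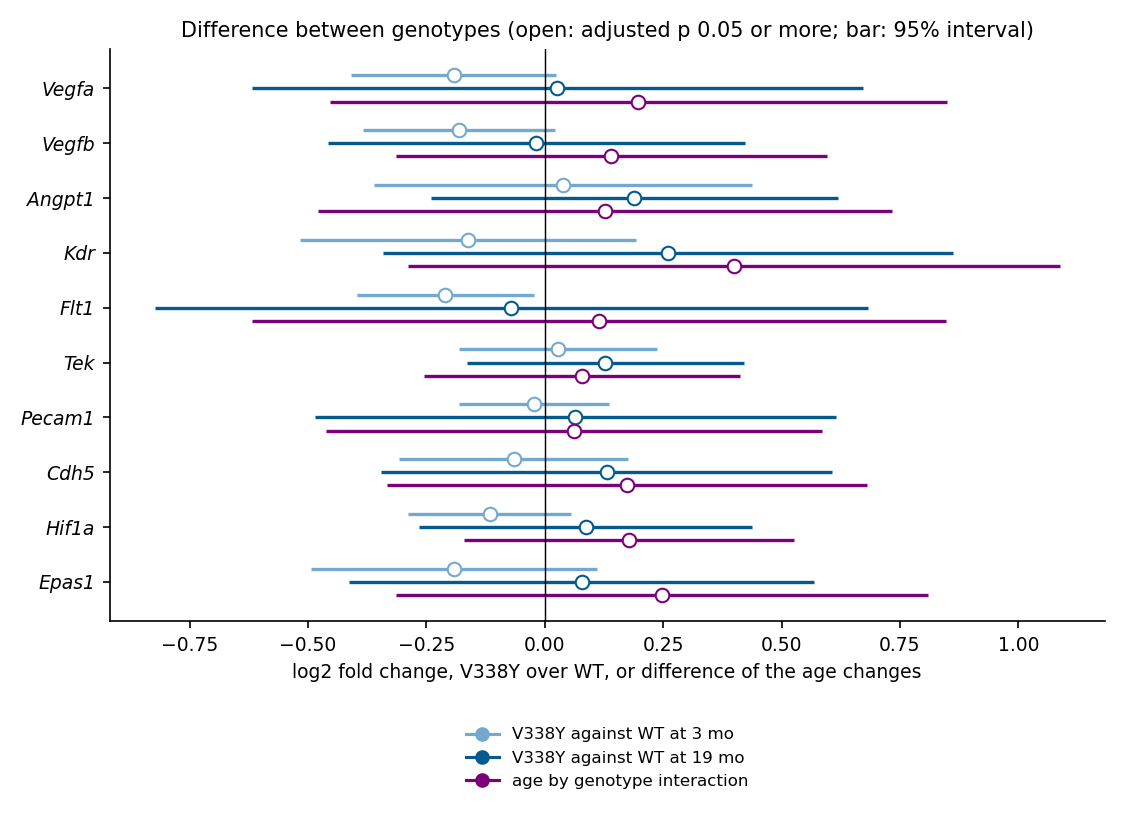
Log2 fold change of V338Y over WT (x axis) for each of the 10 genes at 3 mo and 19 mo, with the 95% interval as a bar. A further series on the same axis gives the interaction, the difference of the age changes between V338Y and WT. Only the interval of Flt1 at 3 mo lies entirely below 0, and its adjusted p is 0.475; the intervals at 19 mo are wider than those at 3 mo.

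The difference between the ages was also compared between the genotypes directly, as an interaction. None of the 10 genes passed (0 of 10), and neither did any of 14128 genes tested (0%), of which 1361 had an unadjusted p under 0.05, while DESeq2 called 28. The fitted age difference was the larger in V338Y for all 10 genes, from 0.062 for Pecam1 to 0.40 for Kdr on the log2 scale (Kdr 95% interval -0.29 to 1.09, adjusted p = 0.713), beside 48.3% of all genes with a positive value. This sign rests on single mice for 4 of the genes. Without 19 mo V338Y mouse 5, Vegfa gave -0.022, Flt1 -0.13 and Pecam1 -0.036, and without 19 mo WT mouse 2, Flt1 gave -0.083, Tek -0.012 and Pecam1 -0.12. Vegfb, Angpt1 and Pecam1, called in V338Y only, differed between the genotypes in their age effect by 0.14, 0.13 and 0.062, with adjusted p of 0.867, 0.917 and 0.960.

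The wider gene families were read from lists that hold some of the 10 genes. Over all genes tested, 18.3% were called higher at 19 mo in WT and 24.4% in V338Y. In either direction 36.2% and 46.9% were called. Whether any list differed from these shares was not tested. Of 5 VEGF receptors and co-receptors, Kdr and Flt1 included, 4 were called higher at 19 mo in WT and 5 in V338Y. Of the 3 that are not among the 10 genes, 2 were called higher in WT and 3 in V338Y. Flt4, the lymphatic VEGF receptor, rose by 1.24 in WT (adjusted p = 0.00107) and 1.35 in V338Y (adjusted p = 1.97e-04). The co-receptor Nrp2 rose by 0.74 and 1.14, whereas Nrp1 gave 0.08 in WT (adjusted p = 0.621) and rose by 0.43 in V338Y (adjusted p = 0.0318). Of 3 ligands other than Vegfa and Vegfb, 1 was called higher and 1 lower in WT, and 1 higher in V338Y. With the block 0 of the ligands were called in WT. In WT only the mice numbered 2 and 4 occur at both ages, so that every WT age result with the block rests on these mice. Vegfd, a ligand of VEGFR3, rose by 0.91 and 1.15. Pgf, placental growth factor and a ligand of VEGFR1, was at 1.85 ± 0.502 CPM in 3 mo WT and 0.691 ± 0.207 CPM in 19 mo WT mice, a log2 change of -1.43 (adjusted p = 0.00996), and gave -0.82 in V338Y (adjusted p = 0.109). Of 3 angiopoietin and Tie genes tested beside Angpt1 and Tek, 2 were called higher in both genotypes. Angpt2, which opposes angiopoietin-1, rose by 1.08 (adjusted p = 0.00955) and 0.95 (adjusted p = 0.0205), and Ptprb, the phosphatase that restrains Tie2, rose by 0.97 and 1.08. Angpt4 was too low to be tested.

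Among 9 genes of HIF subunits and oxygen sensors, 2 were called higher and 2 lower in WT, and 2 higher and 3 lower in V338Y. Beside the counts of this paragraph stand 18.3% and 24.4% of all genes called higher, and 36.2% and 46.9% called in either direction. With Epas1 rose Egln3, a prolyl hydroxylase that marks HIF-α proteins for breakdown and is itself a HIF target, by 1.89 (adjusted p = 0.00915) and 2.45 (adjusted p = 0.00326). Egln2, a second such enzyme, fell by 0.40 and 0.63 on the log2 scale in WT and V338Y. The 2 lower genes in WT became 0 with the block or without 19 mo WT mouse 4, and 1 without 3 mo WT mouse 1, 3 or 4. Of 14 HIF target genes, 2 were called higher and 3 lower in WT, and 2 higher and 4 lower in V338Y. Slc2a1, the glucose transporter GLUT1, rose by 1.05 and 1.31, and Ndrg1 by 0.82 and 0.81. The glycolytic genes Pgk1 and Ldha fell, Pgk1 by 0.95 and 1.18 and Ldha by 0.65 and 0.76, as did the mitophagy gene Bnip3, by 0.64 and 0.89. The list name therefore covers genes that moved in opposite directions. Of 7 coactivators, nuclear receptors and kinases known to act upstream of Vegfa in muscle, 1 was called higher and 1 lower in WT, and 3 higher and 1 lower in V338Y. Ppargc1b rose by 1.30 and 1.36 and Esrra fell by 0.86 and 0.75, whereas Ppargc1a gave 0.44 in WT (adjusted p = 0.103) and rose by 0.58 in V338Y (adjusted p = 0.0118). The count of higher genes in WT was 3 without 19 mo WT mouse 2 or 4.

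**Figure D4:**
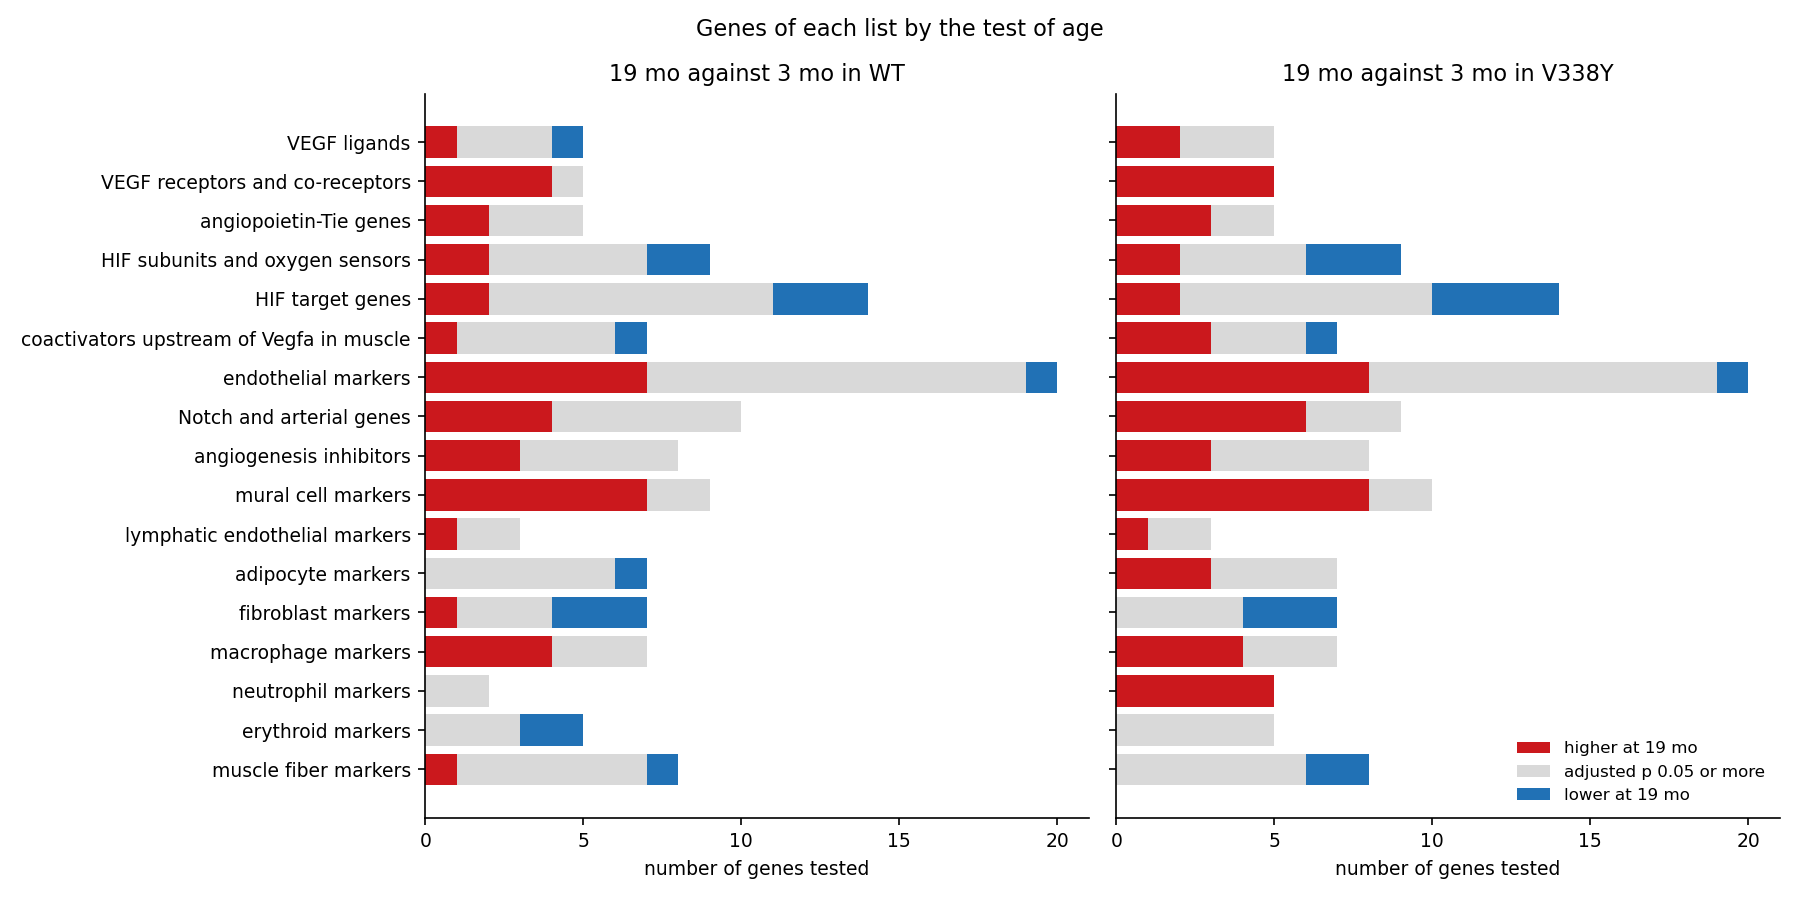
Number of genes tested in each list (x axis) that were called higher at 19 mo, lower at 19 mo, or not called (adjusted p 0.05 or more), in WT and V338Y mice. Of the 5 VEGF receptors and co-receptors, 4 and 5 were higher, and of the 20 endothelial markers 7 and 8 were. Over all genes tested, 18.3% and 24.4% were higher.

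Markers of endothelial cells did not rise as 1 block. Of 20 markers, 7 were called higher and 1 lower in WT, and 8 higher and 1 lower in V338Y, with medians of 0.243 and 0.466 on the log2 scale. Over all genes, 18.3% and 24.4% were called higher, and 36.2% and 46.9% in either direction. Vwf, the clotting factor stored in endothelial cells, was at 17.1 ± 4.55 and 64.4 ± 16.8 CPM in 3 mo and 19 mo WT mice (1.92, adjusted p = 4.79e-04), and its log2 change in V338Y was 1.43 (adjusted p = 1.71e-04). Eng, a co-receptor for TGF-β ligands, rose by 1.43 and 1.49, Robo4 by 1.51 and 1.36, and Nos3, the endothelial nitric oxide synthase, by 0.87 and 1.08. Ramp2 fell by 0.43 and 0.29. Emcn, a sialomucin of capillaries and veins, was at 10.9 ± 1.89 and 11 ± 1.17 CPM in WT (0.02, adjusted p = 0.927), and Aqp1, the water channel of capillaries, at 243 ± 24.2 and 240 ± 54.0 CPM (-0.01, adjusted p = 0.947). Egfl7 also was not called in either genotype, and neither was Tie1, which is not among the 20 markers. The summed level of the 20 markers was 449 to 473 CPM in 3 mo WT, 460 to 477 CPM in 3 mo V338Y, 437 to 689 CPM in 19 mo WT and 454 to 659 CPM in 19 mo V338Y mice, so that the ages overlapped in both genotypes. Aqp1 alone made up 41.8% to 57.1% of this sum. The other 19 markers summed to 203.1 to 239.5 CPM in 3 mo WT, 202.4 to 233.1 CPM in 3 mo V338Y, 251.9 to 395.1 CPM in 19 mo WT and 261.9 to 372.8 CPM in 19 mo V338Y mice, and without Aqp1 the ages did not overlap in either genotype. In WT this gap rested on Vwf. It was at 22.6 CPM in 3 mo WT mouse 4 and 48.3 CPM in 19 mo WT mouse 2, the mice on either side of the gap. None of the 20 was at 0 in any mouse. The WT count of higher markers ranged from 3 to 9 over the alternatives, and was 3 without 19 mo WT mouse 5 or 3 mo WT mouse 2, 4 without 19 mo WT mouse 4 or 3 mo WT mouse 3 or 4, and 3 with the block. Ramp2, the 1 lower marker, was not called in WT with the block, nor in V338Y without 19 mo V338Y mouse 3 or 4, without 3 mo V338Y mouse 2, 3 or 4, or without the filter.

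Genes of Notch signalling and arterial identity, which act downstream of VEGFR2 in endothelial cells, gave 4 higher of 10 in WT and 6 higher of 9 in V338Y. The shares of all genes called higher were 18.3% and 24.4%. Dll4, the Notch ligand of sprouting and arterial endothelium, was at 4.32 ± 0.565 and 13.5 ± 3.30 CPM in 3 mo and 19 mo WT mice (1.64, adjusted p = 4.39e-04) and rose by 1.97 in V338Y. Notch1 rose by 1.29 and 1.72, Notch4 by 1.38 and 1.67, and Efnb2, the arterial ephrin, by 0.75 and 1.24. Gja4 and Gja5, arterial connexins, were not called in either genotype. Of 8 angiogenesis inhibitors 3 were higher in each genotype, among them Thbs1, thrombospondin-1, by 1.4 and 1.78. The WT count fell to 0 with the block and to 1 without 19 mo WT mouse 4. Mural cell markers, which stand for pericytes and vascular smooth muscle, gave 7 higher of 9 in WT and 8 of 10 in V338Y, with Notch3 at 1.45 and 1.76 and Pdgfrb at 0.81 and 1.10. Their summed level was 584 to 704 CPM over the 8 mice aged 3 mo and 821 to 1170 CPM over the 7 mice aged 19 mo, without overlap.

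Markers of other cell types also passed the test between 3 mo and 19 mo. Of all genes tested, 18.3% in WT and 24.4% in V338Y were called higher, and 36.2% and 46.9% in either direction. Macrophage markers gave 4 higher of 7 in both genotypes, with a summed level of 137 to 202 CPM at 3 mo and 192 to 295 CPM at 19 mo. Of 3 lymphatic markers tested, Reln alone was higher, in both genotypes. Fibroblast markers gave 1 higher and 3 lower of 7 in WT and 3 lower in V338Y, the lower ones being Col1a1, Col1a2 and Col3a1. Adipocyte markers gave 1 lower of 7 in WT and 3 higher in V338Y, and erythroid markers 2 lower of 5 in WT and 0 of 5 in V338Y. Neutrophil markers gave 0 of 2 in WT and 5 higher of 5 in V338Y, where their sum ranged from 2.50 to 557 CPM between mice, the highest being mouse 5. Muscle fiber markers gave 1 higher and 1 lower of 8 in WT and 2 lower in V338Y. The part of these cell types in the results on the 10 genes was not tested. Many of these counts moved with single mice or settings. Over the alternatives the macrophage count ranged from 2 to 7 in WT (2 without 19 mo WT mouse 4, 7 without 3 mo WT mouse 4) and from 3 to 7 in V338Y (7 with the block). The V338Y neutrophil count ranged from 1 to 6 and was 1 without 19 mo V338Y mouse 3 or 5. The V338Y adipocyte count ranged from 1 to 4, with 1 left without 19 mo V338Y mouse 2 or 4 or 3 mo V338Y mouse 3 or 4, and the WT count of lower erythroid markers from 0 to 4, with 0 left without any 1 of the 3 older mice. The 3 lower fibroblast markers of V338Y fell to 0 without 19 mo V338Y mouse 4 or 3 mo V338Y mouse 2 or 3. Between genotypes, 0 genes of any list were called at either age in the main edgeR fit. At 3 mo some summed levels were nevertheless lower in V338Y without overlap, which was not tested. Angiogenesis inhibitors summed to 856 to 955 CPM in WT and 669 to 834 CPM in V338Y. Notch and arterial genes summed to 74.4 to 79.5 CPM in WT and 59.1 to 71.0 CPM in V338Y. The sums of VEGF ligands, VEGF receptors and co-receptors, endothelial markers and mural cell markers overlapped. With the mouse number as a block, 3 of 5 neutrophil markers were called higher in V338Y at 19 mo, and DESeq2 called 1. Whether same-numbered mice are pairs is not stated in the sources used here.

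The 2 mice aged 19 mo and numbered 5 stood apart in the markers of fiber type, a pattern chosen after its values were seen. Myh2, the myosin of oxidative type IIA fibers, was at 4246 CPM in the WT mouse and 4880 CPM in the V338Y mouse, against 243 to 878 CPM in the other 13 mice. Myh7, the slow type I myosin, was at 320 and 1210 CPM in these mice, at 181 CPM in 19 mo WT mouse 4 and at 0.604 to 30.2 CPM in the others. The same mice had the highest Vegfa, Flt1, Pecam1 and Hif1a of their groups, and the highest Epas1. Among the 9520 genes with at least 5 CPM on average, those whose deviations from the group mean were most like those of Vegfa over the 15 mice were Wfs1 (Pearson r = 0.966), Actn2 (0.949), a Z-disc gene, and Trak2 (0.948). Actn2 was at 1022 and 1066 CPM in the mice numbered 5 and at 121 to 439 CPM in the others. Kdr, Cdh5, Vegfb and Tek had a different order in V338Y only, since 19 mo V338Y mouse 2 was the highest V338Y mouse in all of these, with 876 CPM of Myh2. In 19 mo WT mice, mouse 5 was the highest in these genes too, at 98.0, 73.7, 27.4 and 39.0 CPM. In Angpt1 the 19 mo mice numbered 2 were the highest of their groups in both genotypes. They stood at 22.5 CPM in WT and 24.5 CPM in V338Y, against 16.3 and 19.4 CPM in the mice numbered 5. Egln3 was at 58.6 and 99.2 CPM in the mice numbered 5, against 14.9 to 27.1 CPM in the other 19 mo mice. The part of fiber composition, or of which portion of the muscle was taken, was not tested.

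**Figure D5:**
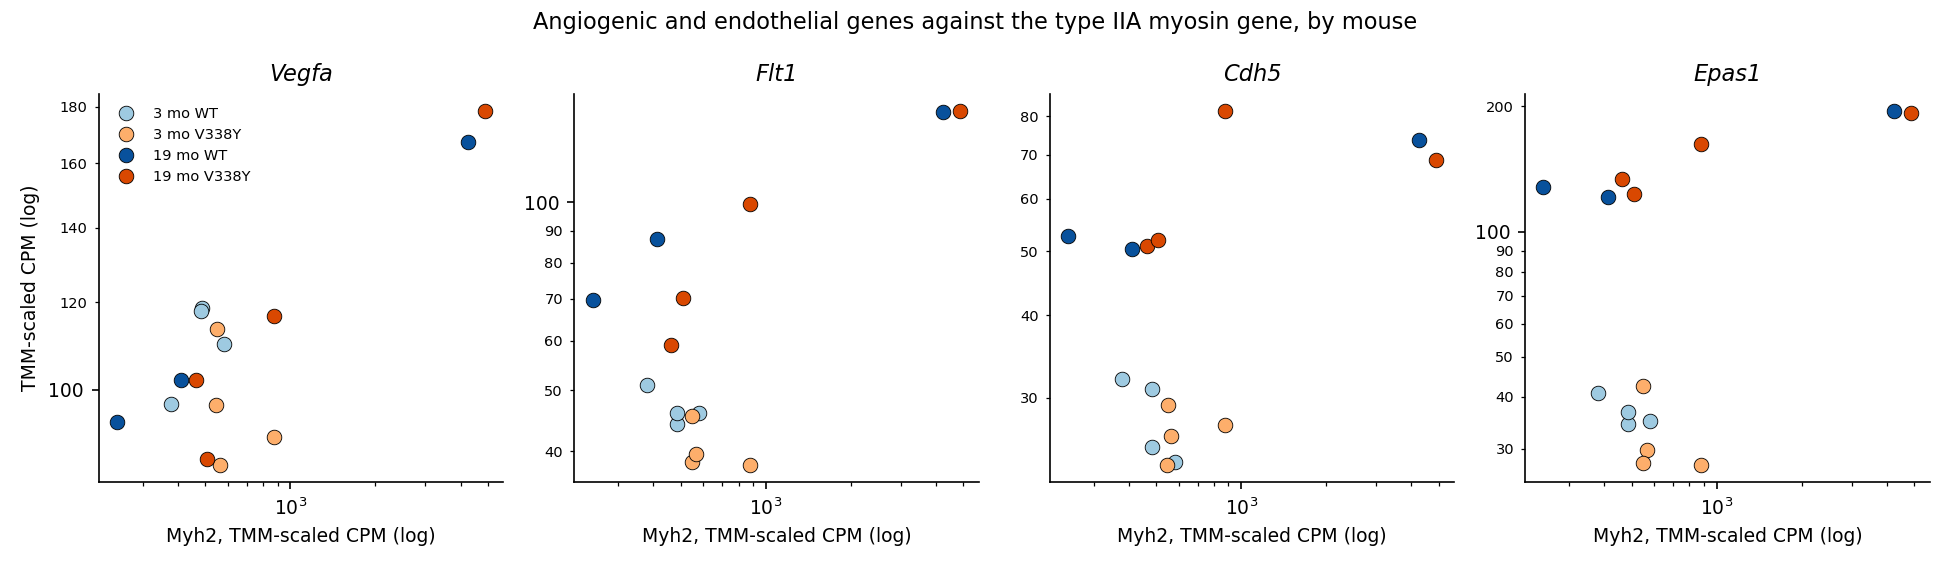
TMM-scaled CPM of Vegfa, Flt1, Cdh5 and Epas1 (y axis, log scale) against Myh2 (x axis, log scale), with 1 point per mouse colored by group. The 19 mo mice numbered 5 lie far to the right, at 4246 and 4880 CPM of Myh2, with the highest Vegfa of all 15 mice, while Epas1 separates the ages also among the mice with under 900 CPM of Myh2.

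The other nearest genes were of several kinds. Fgd5, an exchange factor of endothelial cells, was nearest to Vegfb (r = 0.929) and to Cdh5 (0.907), and Myl9, a myosin light chain of smooth muscle, was nearest to Kdr (0.931) and close to Cdh5 (0.907). Flt1 was nearest to Nln (0.948) and Adgrf5 (0.937), Pecam1 to Dock9 (0.946) and Notch1 (0.945), and Epas1 to Lbh (0.943). Angpt1 was nearest to Tmem123 (0.917), Tek to Slfn5 (0.909) and Hif1a to Evc2 (0.89). These are descriptions over 15 mice that share their libraries and scaling.

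Among the 10 genes themselves, 0 of 45 pairs passed after adjustment for their covariation around the group means (smallest adjusted p = 0.0741, permutation test). Flt1 and Pecam1 had the highest correlation, with Pearson r = 0.924 (permutation p = 0.0115) and Spearman rho = 0.754, and r = 0.872 without the 2 mice farthest from the median of Flt1. Within ages it was -0.046 over the 8 mice aged 3 mo and 0.967 over the 7 mice aged 19 mo, so that the pooled value rested on the older mice. Kdr and Cdh5 gave r = 0.845 (permutation p = 0.00354), with 0.569 at 3 mo and 0.966 at 19 mo. Angpt1 stood apart in the pooled values, with r between -0.167 and 0.390 against the other 9 genes, whereas the remaining 36 pairs lay between 0.231 and 0.924. At 19 mo the same contrast was seen, with -0.283 to 0.388 for Angpt1 and 0.485 to 0.971 for the remaining pairs. At 3 mo it was not seen. There Angpt1 ranged from -0.529 (Vegfa) to 0.609 (Tek), and the remaining pairs from -0.726 (Vegfb and Hif1a) to 0.756 (Vegfb and Pecam1).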

How the data were processed

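RNA of quadriceps muscle was read as single-end libraries from a TruSeq Stranded mRNA kit. According to the labels and methods, the authors counted reads per Ensembl gene with RSEM. The submitters' processing notes also name STAR 2.4.2a, CASAVA 1.8 and bcl2fastq 1.8.4 and the build GRCm38, whereas the methods name GRCm37. The strand setting of counting is not given in the sources used here. The authors deposited RSEM expected counts per gene, written as whole numbers and not scaled, with 1 file per mouse, and 0 of 105 pairs of files were identical.

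Counts were tested in edgeR 4.0.16 (R 4.3.3) by the quasi-likelihood test with TMM scaling, on genes that reached 10 counts in 50% or more of the mice in either group compared, with Benjamini-Hochberg adjustment and a threshold of 0.05. Each comparison was fitted on its own mice, and the interaction on all 15. CPM in the text were scaled by TMM over all 15 mice. Replicates are separate mice. Ratios and correlations used 0.5 as pseudocount, exact permutation tests and 100000 permutations (SciPy 1.17.1). The scripts were tested on simulated data. Genes named are the 10 genes, up to 5 called genes of each list with the smallest adjusted p, and the 3 nearest genes of each. Other genes named were chosen after their values were seen. The genes and lists were chosen with earlier results of these data known. Alternatives were RLE size factors, DESeq2 1.42.0, no filter, scaling without the 10 most abundant genes, a mouse-number block, 1 fit of all 15 mice, each mouse left out in turn, and both 19 mo mice numbered 5 left out, the last chosen after seeing the data.

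Mouse numbers come from the labels. The sources used here state no pairing. Deviations of same-numbered mice correlated at 0.132, 0.239 and 0.400 between genotypes at 19 mo, each over 0.1. Of 6 such mice, 5 correlated best with their own number. The highest correlation, 0.467, was however between WT mouse 2 and V338Y mouse 3. Pairing at 19 mo is therefore uncertain, and the block was kept as an alternative. At 3 mo the correlations ranged from -0.162 to 0.141, and between ages from -0.136 to 0.0158, so that no pairing was taken. RNA integrity per mouse was not used here.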

Additional observations from a re-analysis of the deposited data

Results flagged for a closer look

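In 3 of the 30 groups of 4 mice examined (10 genes in 3 groups), 1 mouse lay far from the other 3 by Dixon's test at the 95% level, which chance alone gives in about 1 of 20 groups. In 3 mo WT mice Kdr was highest in mouse 4, at 49.97 CPM against 34.4 to 35.3 CPM in the others. In 3 mo WT mice Hif1a was highest in mouse 2, at 41.1 CPM against 38.9 to 39.1 CPM. In 3 mo V338Y mice Epas1 was highest in mouse 1, at 42.4 CPM against 27.4 to 29.9 CPM, which was still below every 19 mo mouse. The group of 3 mice was not examined in this way.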

How the results depend on the processing

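Kdr, Flt1, Cdh5 and Epas1 stayed called higher at 19 mo in both genotypes under every alternative, and 0 of the 10 genes was called for genotype or interaction under any. Over all genes, the genotype count at 3 mo was 33 with no filter and 66 by DESeq2, and 3 to 14 with 1 mouse left out, against 10. At 19 mo it was 14 with no filter, 64 by DESeq2, 110 with the replicate block and 2 to 7 with 1 mouse left out, against 6. For WT age the replicate block gave 2229 genes against 4940. Only the WT mice numbered 2 and 4 occur at both ages, so that the age difference with the block rests on these mice alone. The interaction gave 5 genes with no filter, 28 by DESeq2 and 28 with the block, against 0. The V338Y age calls among the 10 genes ranged from 4 to 7 with 1 mouse left out and were 5 with the block, which lost Angpt1 and Pecam1. The number of called correlations ranged from 0 to 1 with 1 mouse left out. Except for these, the block changed no call on the 10 genes. Of the same-numbered mice, 0 of 8 at 3 mo and 0 of 6 between ages in V338Y correlated best with their own number, so that the numbers there give no pairing. In the 3 mo genotype comparison 1 angiogenesis inhibitor was called lower with the block, with no filter and by DESeq2, against 0. The block also called 1 adipocyte marker lower and DESeq2 1 muscle fiber marker higher, each against 0. The causes were not tested.

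Signs turned only for values that were not called. In the 19 mo genotype comparison Vegfa was -0.0036 with no filter, Vegfb 0.052 and Flt1 0.11 with the block, and Vegfb 0.084 without both mice numbered 5. For WT age, Vegfa was -0.21 and Tek -0.14 with the block, and -0.19 and -0.051 without both mice numbered 5. With 1 mouse left out, 3 mo genotype differences ranged from -0.099 to 0.15 (Angpt1), -0.022 to 0.10 (Tek), -0.059 to 0.0068 (Pecam1) and -0.13 to 0.0056 (Cdh5). At 19 mo they ranged from -0.22 to 0.33 (Vegfa), -0.14 to 0.15 (Vegfb), -0.34 to 0.26 (Flt1), -0.12 to 0.30 (Pecam1), -0.017 to 0.33 (Cdh5) and -0.050 to 0.33 (Epas1). WT age differences ranged from -0.19 to 0.28 (Vegfa), -0.051 to 0.13 (Tek) and -0.13 to 0.070 (Hif1a). Interactions ranged from -0.022 to 0.51 (Vegfa), -0.13 to 0.45 (Flt1), -0.012 to 0.17 (Tek) and -0.12 to 0.29 (Pecam1). Genotype differences of log2 ratios at 3 mo ranged from -0.095 to 0.062 (Vegfa to Vegfb), -0.18 to 0.12 (Flt1 to Kdr) and -0.46 to 0.13 (Angpt1 to Angpt2). At 19 mo they ranged from -0.092 to 0.16 (Vegfa to Vegfb), -0.10 to 0.39 (Angpt1 to Angpt2), -0.11 to 0.054 (Hif1a to Epas1) and -0.15 to 0.049 (Vegfa to Pecam1), and the WT age difference of Flt1 to Kdr from -0.075 to 0.15.

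With 3 or 4 mice per group, the data do not exclude differences within the intervals given, and a WT fit without 1 of the 3 older mice rests on 2.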
